A study of Mus musculus with 5 samples.

Results

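The TGF-beta and BMP pathway was described through 45 genes: ligands, latent TGF-beta binding proteins, extracellular regulators, receptors, Smads with their regulators, and target genes. The members were given as a list of gene symbols. Each was read from the probe set annotated to that symbol alone, and each of the 45 had exactly 1 such probe set, out of 22180 genes named in this way on the array. Mammary epithelial cells of 4-week-old mice on a congenic FVB/NJ background were hybridised to 5 Affymetrix arrays. The knockout group, 2 arrays, carries an MMTV-Cre transgene and floxed alleles of Mmp14, a membrane-anchored metalloproteinase. The wild-type group, 3 arrays, holds littermates with the same floxed alleles, and no Cre is listed for them, so the presence of Cre and the loss of Mmp14 cannot be told apart. The MMTV promoter is used to drive Cre in mammary epithelium, and recombination by cell type was not measured here. Values are log2 signals, means are given ± SD with n = 2 knockout and n = 3 wild-type arrays, and differences are knockout minus wild type.

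TGF-beta ligands are secreted in a latent complex with their own propeptide and an LTBP, which anchors them in the matrix. Integrins and proteases, MMP14 among them, can release the active ligand. TGF-beta and activin receptors phosphorylate Smad2 and Smad3, BMP receptors phosphorylate Smad1 and Smad5, and both groups act in the nucleus together with Smad4. In the mammary gland TGF-beta is known as a restraint on ductal growth and branching, and BMP signalling takes part in the formation of the bud and of the epithelial lineages.

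No difference between the genotypes was detected in any of the 45 genes. By limma's test over all genes, 0 of 45 passed an adjusted p of 0.05, as did 0 of 22180 genes (0%), and the smallest adjusted p was 0.919 for the members and for the whole array. At an unadjusted p under 0.05 there were 0 of 45 members, against 288 genes (1.3%) over the array. The mean was higher in the knockout for 23 members (51.1%) and lower for 22 (48.9%), against 46.3% and 49.5% of all genes. The median difference over the members was 0.00, as over all genes, and the single differences ran from -0.33 (Tgfb3) to 0.26 (Tgfbr3). No member had means 1.5-fold or more apart, where 81 of 22180 genes (0.37%) did.

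The arrays allowed some bounds. For 30 of the 45 members (66.7%) the 95% interval of the difference lay within 1.5-fold in either direction (0.58 log2 units), as for 84.4% of all genes. The 15 with wider intervals were Tgfb2, Tgfb3, Ltbp4, Bmp4, Bmp6, Inhba, Bmp1, Tgfbr2, Tgfbr3, Acvr1b, Acvrl1, Bambi, Smurf1, Id2 and Tgfbi. For these genes the interval does not exclude a 1.5-fold difference. To 6 decimals, 27 members (60.0%) and 68.8% of all genes repeated a value between arrays. In all 27 (60.0%) the repeated value was the median of the 5 arrays, as in 68.6% of all genes. All 6 members with a mean signal under the 40th percentile of genes were among the 30: Bmp5, Nog, Grem1, Bmpr1b, Acvr2b and Smad6. So were Bmp2, Acvr2a and Smad7, which, like Grem1, showed a wild-type SD of 0. Whether dim or repeated values narrowed the intervals was not tested, so for such members the bound on the genotype effect is uncertain.

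**Figure D1:**
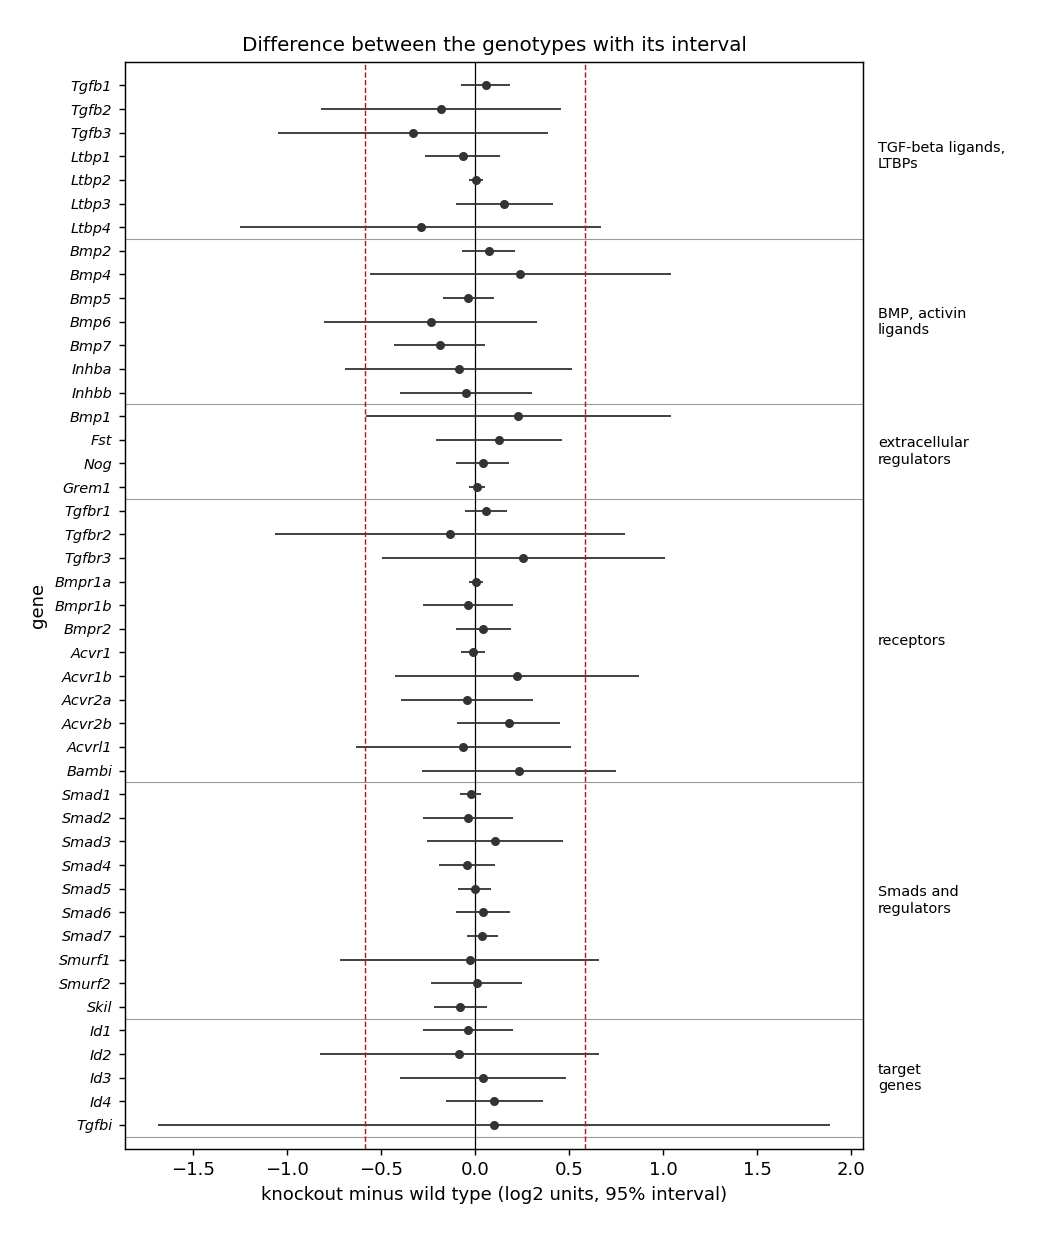
Knockout minus wild type in log2 units (horizontal axis) for the 45 genes (vertical axis), grouped by role; points are limma estimates, bars their 95% intervals, and dashed lines mark 1.5-fold. Every interval includes 0, and that of Tgfbi is the widest, from -1.68 to 1.88.

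Mmp14 itself did not separate the groups, and whether its probes lie in the floxed part is not stated, so it checks the labels only in part. Its means were 7.63 ± 0.50 (knockout) and 8.19 ± 0.46 (wild type), with knockout 1 (7.98) above wild type 3 (7.75), and did not pass the test. Luminal markers had a list mean of 8.41 to 8.67 over the 5 arrays and basal myoepithelial markers one of 7.15 to 7.50. Stromal markers were present too: the fibroblast gene Dcn read 10.21 to 10.71, and no value in the table is 0, the lowest being 1.76. By the array numbers in the labels, the arrays of knockout 1 and wild types 1 and 2 follow each other (run 1), as do those of knockout 2 and wild type 3 (run 2). What separates the runs is not stated. The difference of Mmp14 was -0.43 in run 1 and -0.46 in run 2. Of the 45 members, 10 had the same sign in both runs (22.2%, against 33.2% of all genes), 25 had opposite signs (55.6%, against 39.7%) and 10 had a difference of 0 in one run.

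Among the 3 TGF-beta ligands, Tgfb1 had the smallest span over the arrays. Its signal was 6.62 on knockout 1 and 6.62 on knockout 2, against 6.57, 6.62 and 6.49 on wild types 1, 2 and 3, a difference of 0.06 ± 0.05 (SE; limma adjusted p = 0.919). Both knockout arrays lay at the top of the wild-type range and within it. Tgfb3 read 5.93 and 6.49 on the knockout arrays, against 6.39, 6.83 and 6.39 (-0.33 ± 0.25, SE; adjusted p = 0.919 by limma). Knockout 1 was lowest and knockout 2 lay between the wild-type arrays. This was the largest of the 45 differences in size, and without knockout 1 it was -0.05. Run 1 gave -0.68 and run 2 gave 0.09. Tgfb2, the ligand whose propeptide lacks the integrin-binding motif of the other 2 isoforms, read 7.57 and 6.99 against 7.65, 7.41 and 7.33. Here knockout 2 was the low array and knockout 1 lay inside the wild-type range.

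Some of the LTBPs hold the latent ligand in the matrix. Ltbp4 read 6.01 on knockout 1 and 6.79 on knockout 2, against 6.49, 7.06 and 6.53 in the wild type (-0.29 ± 0.34, SE). The order of the arrays resembled that of Tgfb3, with knockout 1 lowest and wild type 2 highest, and run 1 gave -0.76 where run 2 gave 0.27. Ltbp3 read 6.93 and 6.69 against 6.58, 6.69 and 6.69, with knockout 1 above the rest and the other knockout array equal to a wild-type value. Ltbp1 read 7.21 and 7.09 against 7.21, 7.31 and 7.14 (-0.07 ± 0.07, SE), and the groups overlapped. Ltbp2 had the same value, 4.65, on 4 of the arrays and 4.63 on wild type 3. Of these 7 ligand and LTBP genes, 3 had a higher and 4 a lower mean in the knockout (median -0.07).

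**Figure D2:**
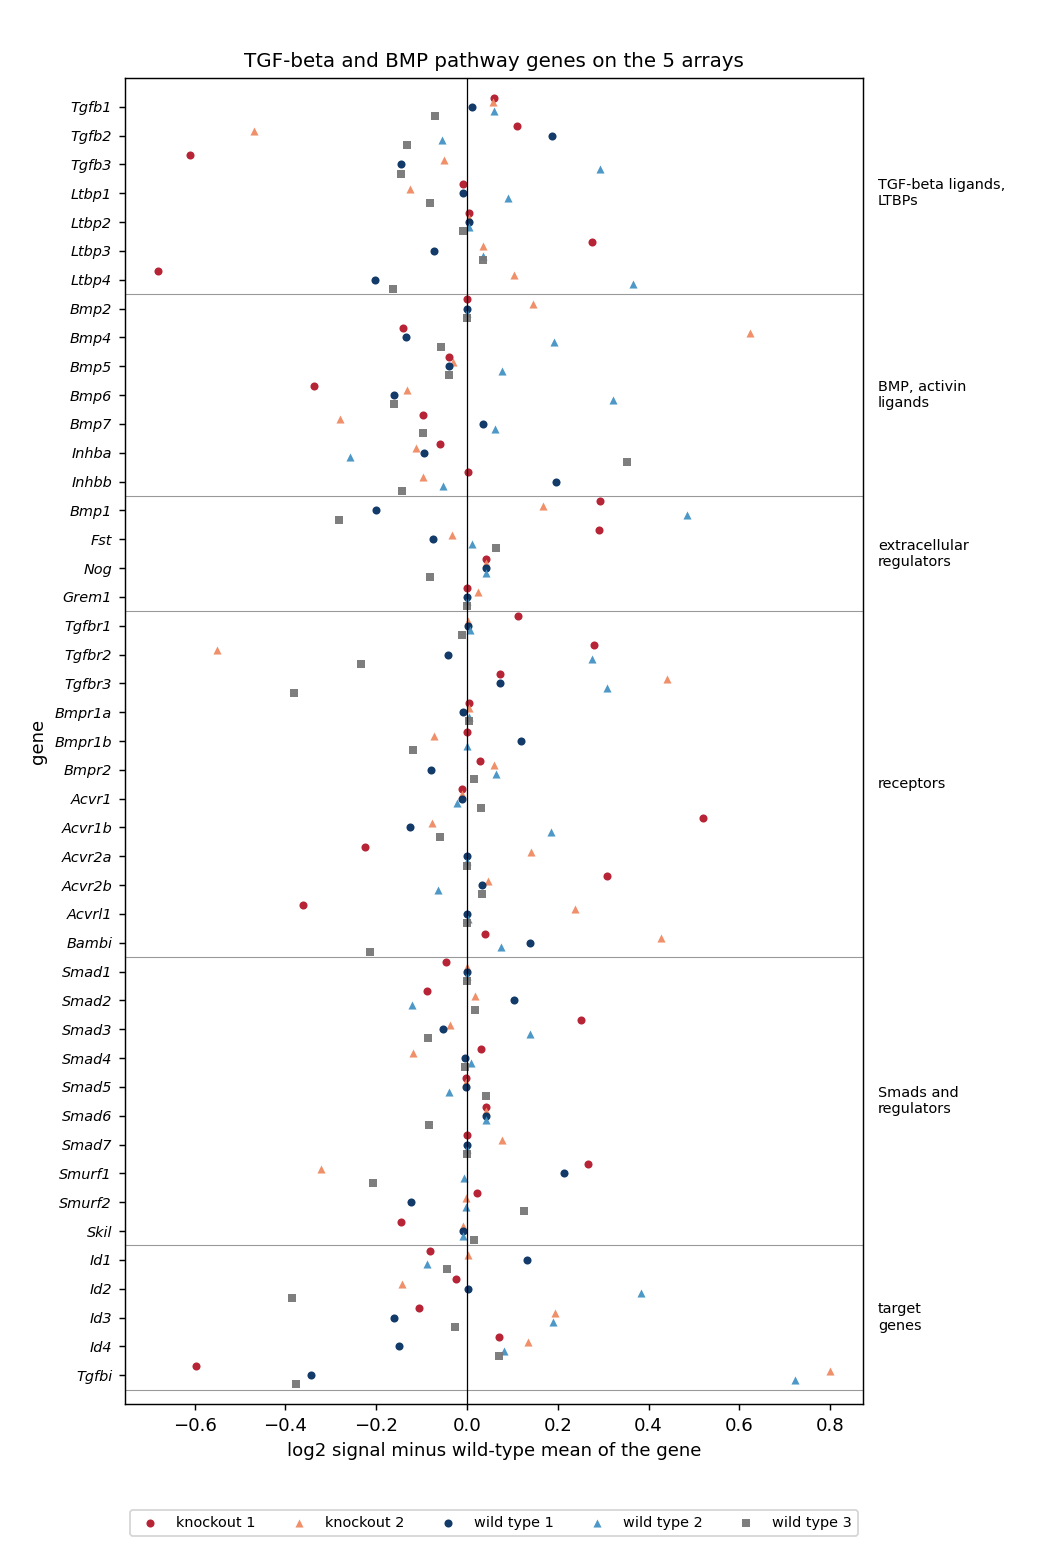
Log2 signal minus the wild-type mean of the gene (horizontal axis) for each of the 45 genes (vertical axis) on the 5 arrays, 1 point per array, shifted slightly up or down within a gene so that equal values stay visible. The knockout arrays lie on opposite sides of all wild-type arrays for 7 of the 45 genes (15.6%, against 13.9% of all genes). Tgfbi spans 1.40 log2 units and Bmpr1a 0.01.

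Of the 7 BMP and activin ligands, 5 had a lower and 2 a higher mean in the knockout (median -0.05). Bmp7, a BMP expressed by many epithelia, had the smallest unadjusted p of the 45 members (0.0933). It read 5.69 and 5.51 on the knockout arrays, against 5.82, 5.85 and 5.69 (-0.19 ± 0.08, SE; limma adjusted p = 0.919). Knockout 2 was the lowest array, knockout 1 equalled wild type 3, and the sign was the same within run 1 (-0.14) and run 2 (-0.18). Bmp2 was 4.999 on knockout 1 and on all 3 wild-type arrays and 5.143 on knockout 2, which alone stood out.

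Bmp4, a ligand mostly made by mesenchyme, read 3.83 and 4.595 against 3.84, 4.16 and 3.91 (0.24 ± 0.28, SE). The knockout arrays took the lowest and the highest place, on opposite sides of all wild-type arrays. Bmp6 read 4.11 and 4.31 against 4.28, 4.77 and 4.28 (-0.23 ± 0.20, SE), with knockout 1 lowest and wild type 2 highest. Inhba, the activin A subunit, read 8.69 and 8.64 against 8.65, 8.49 and 9.10, and Inhbb read 5.21 and 5.11 against 5.40, 5.15 and 5.06. In both the knockout values lay inside the wild-type range. Bmp5 spanned 0.12 log2 units over the 5 arrays.

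Bmp4 and Bmp6 both had knockout 2 and wild type 2 as their highest arrays, so their promoters are shown. The 250 bases upstream of the start in RefSeq (GRCm38.p6) lie at chr14:46390670-46390919 on the minus strand for Bmp4 and at chr13:38345466-38345715 on the plus strand for Bmp6. Capitals mark the letters CAGAC, the Smad box, on either strand (GTCTG on the other), and GGCGCC, a GC-rich Smad-binding element that reads the same on both strands. Among all 32851 upstream windows of this length, 42.2% hold the first and 9.59% the second. The Bmp4 window holds neither and the Bmp6 window holds 1 CAGAC.
Bmp4: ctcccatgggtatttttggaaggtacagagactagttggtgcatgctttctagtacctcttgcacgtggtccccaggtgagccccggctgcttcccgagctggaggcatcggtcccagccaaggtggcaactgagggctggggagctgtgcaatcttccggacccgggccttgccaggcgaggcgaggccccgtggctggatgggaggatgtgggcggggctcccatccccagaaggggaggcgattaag
Bmp6: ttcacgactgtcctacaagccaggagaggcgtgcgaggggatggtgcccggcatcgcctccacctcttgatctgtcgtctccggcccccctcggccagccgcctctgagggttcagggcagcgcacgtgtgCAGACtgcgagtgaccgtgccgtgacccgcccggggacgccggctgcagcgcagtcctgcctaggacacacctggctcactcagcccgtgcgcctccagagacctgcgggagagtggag

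All 4 extracellular regulators had a higher mean in the knockout (median 0.08), where 46.3% of all genes did, and none passed the test. Fst, the activin-binding protein follistatin, read 9.38 and 9.05 against 9.01, 9.10 and 9.15 (0.13 ± 0.12, SE; limma adjusted p = 0.919). Knockout 1 stood above the other arrays and knockout 2 lay inside the wild-type range. The tolloid protease Bmp1, which processes procollagens and the BMP antagonist chordin, read 6.79 and 6.67 against 6.30, 6.98 and 6.22 (0.23 ± 0.28, SE). Both knockout arrays lay between wild type 2 and the other wild-type arrays, and the difference was 0.47 without wild type 2 and 0.089 without wild type 3. The BMP antagonist Nog was 3.64 on 4 arrays and 3.51 on wild type 3, and Grem1 was 3.24 on 4 arrays and 3.26 on knockout 2, so a single array made each difference.

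Of the 12 receptor genes, 7 had a higher and 5 a lower mean in the knockout (median 0.02). Acvr2b, an activin type II receptor, was the one member of the 45 whose groups did not overlap. It read 3.84 on knockout 1 and 3.58 on knockout 2, against 3.56, 3.47 and 3.56 in the wild type (0.18 ± 0.10, SE; limma adjusted p = 0.919). Knockout 2 exceeded the nearest wild-type arrays by little, and runs 1 and 2 gave differences of 0.33 and 0.01. Without knockout 1 the difference was 0.047, and without knockout 2 it was 0.31. Over the array, 2.63% of genes did not overlap and were higher in the knockout, so 1 of 45 members (2.22%) lies near that share. A further 2.8% were lower without overlap, and 0 of the 45 members were. Acvr2b is also 1 of 6 members whose mean signal lay under the 40th percentile of genes, the limit used here to filter dim genes. Background itself was not measured, as no detection calls were used. The others were Bmp5, Nog, Grem1, Bmpr1b and Smad6. The upstream window of Acvr2b, at chr9:119401928-119402177 on the plus strand, holds 1 Smad box, shown in capitals because this gene alone had separated groups.
Acvr2b: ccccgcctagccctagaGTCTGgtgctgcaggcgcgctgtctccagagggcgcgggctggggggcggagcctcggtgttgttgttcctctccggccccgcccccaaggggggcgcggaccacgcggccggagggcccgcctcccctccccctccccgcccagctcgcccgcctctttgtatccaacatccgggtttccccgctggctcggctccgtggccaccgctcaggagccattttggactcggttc

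The TGF-beta receptors did not share an order of arrays. Tgfbr1, the type I kinase, read 7.33 and 7.22 against 7.22, 7.23 and 7.21 (0.06 ± 0.04, SE), with knockout 1 alone above the rest. Tgfbr2, the ligand-binding type II kinase, read 7.93 and 7.10 against 7.61, 7.93 and 7.42, so that knockout 1 was highest and knockout 2 lowest. The co-receptor Tgfbr3 (betaglycan) read 6.72 and 7.09 against 6.72, 6.95 and 6.27. It was highest on knockout 2 and lowest on wild type 3, and runs 1 and 2 gave -0.12 and 0.82. Its difference, 0.26 with all arrays, was 0.067 without wild type 3, 0.073 without knockout 2 and 0.44 without knockout 1. Bambi, a decoy receptor without a kinase, read 5.52 and 5.91 against 5.62, 5.56 and 5.27 (0.23 ± 0.18, SE), again with knockout 2 highest and knockout 1 inside the wild-type range. Its difference was 0.039 without knockout 2 and 0.43 without knockout 1. Acvr1b, the activin type I receptor, read 6.25 and 5.65 against 5.61, 5.92 and 5.67, where knockout 1 was high. The BMP receptors Bmpr1a, Bmpr1b, Bmpr2 and Acvr1 had differences between -0.04 and 0.04 and spanned at most 0.24 log2 units over the 5 arrays.

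The values of Acvr2a and Acvrl1 are given because leaving out 1 array changed their call, which was seen after their values. Acvr2a, an activin type II receptor, read 7.002 on knockout 1 and 7.37 on knockout 2, against 7.23 on each wild-type array. Acvrl1 (ALK1), a type I receptor best known from endothelium, read 5.24 and 5.84 against 5.60, 5.60 and 5.60. In both genes the knockout arrays stood on opposite sides of wild-type values that were equal or nearly so. Without knockout 1 the difference of Acvr2a was 0.14 (limma adjusted p = 0.0120) and that of Acvrl1 0.24 (limma adjusted p = 0.00753). Without knockout 2 they were -0.22 (limma adjusted p = 0.0207) and -0.36 (limma adjusted p = 0.0207). The same 2 genes thus passed in opposite directions, depending on which knockout array was used, and with both arrays their differences were -0.04 and -0.06.

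With 1 knockout array left out, the remaining one is assumed to vary like the wild type. Without knockout 1, 5 of 45 members passed limma's test, where 7.92% of all genes did. These were Acvr2a, Acvrl1, Bmp2 (0.14), Smad7 (0.08) and Smad4 (-0.12). Without knockout 2, 2 of 45 members passed, Acvr2a and Acvrl1, where 3.76% of all genes did. The wild-type values of all 5 genes were equal or spanned at most 0.01 log2 units. Leaving out any wild-type array gave 0 calls.

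**Figure D3:**
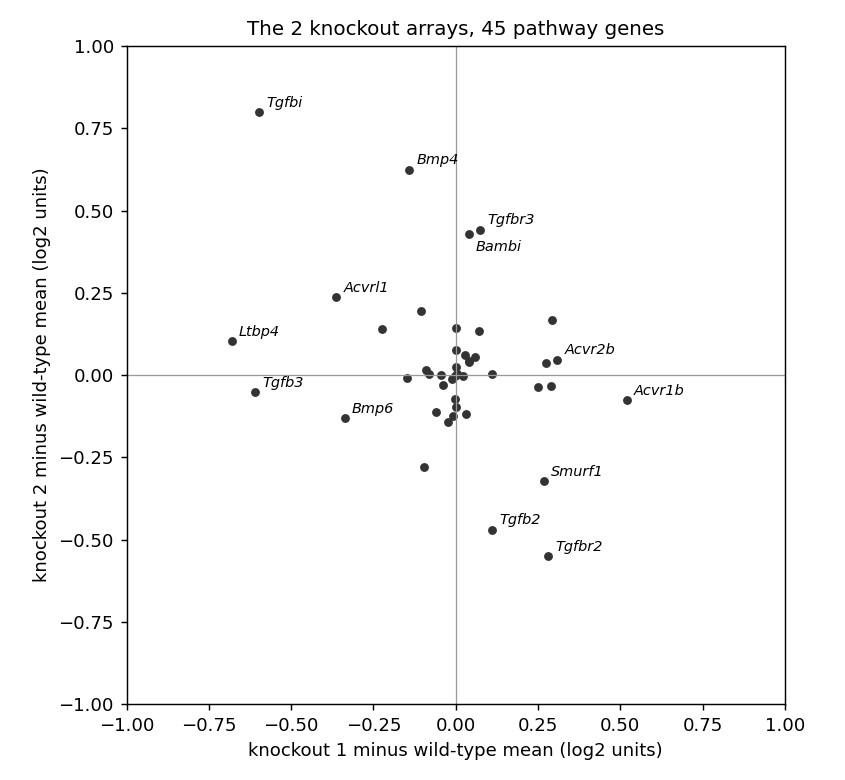
Knockout 1 (horizontal axis) and knockout 2 (vertical axis), each as log2 signal minus the wild-type mean, for the 45 genes, 1 point per gene; genes beyond 0.3 log2 units on either array are named. Genes far from 0 lie mostly away from the diagonal: Tgfbi and Ltbp4 were below the wild-type mean on knockout 1 and above it on knockout 2, and Tgfbr2 and Tgfb2 the reverse.

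The 10 Smads and regulators had differences from -0.08 to 0.11, with a median of -0.01 and 4 higher against 6 lower means. The receptor-activated Smad3 read 7.49 and 7.20 against 7.19, 7.38 and 7.15 (0.11 ± 0.13, SE). Smad1, its counterpart on the BMP side, was 6.25 on 4 arrays and 6.20 on knockout 1. Smad2 spanned 0.22 and Smad5 0.08 log2 units over the 5 arrays, with overlapping groups. The common partner Smad4 read 8.13 and 7.98 against 8.10, 8.11 and 8.10, which put the knockout arrays on either side of the wild type. The inhibitory Smads are induced by the pathway and damp it. Smad7 was 6.96 on 4 arrays and 7.04 on knockout 2. Smad6 was 3.05 on 4 arrays and 2.93 on wild type 3, so that 1 array made each difference.

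The ubiquitin ligase Smurf1, which marks Smads and receptors for degradation, read 7.81 and 7.22 against 7.76, 7.54 and 7.34. Knockout 1 was its highest and knockout 2 its lowest array. Smurf2 had a difference of 0.01 and overlapping groups. Skil (SnoN), a nuclear co-repressor of Smads, read 7.72 and 7.86 against 7.86, 7.86 and 7.89 (-0.08 ± 0.05, SE; limma adjusted p = 0.919), with knockout 1 below and knockout 2 level with the wild type.

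Over the 45 members, the 2 knockout arrays differed from each other by more than the genotype means did in 31 (68.9%), as in 59.8% of all genes. They stood on opposite sides of all 3 wild-type arrays in 7 members (15.6%, against 13.9% of all genes). These were Bmp4, Tgfbr2, Acvr2a, Acvrl1, Smad4, Smurf1 and Tgfbi.

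The target genes gave no common direction. The Id genes encode inhibitors of basic helix-loop-helix factors and are direct targets of BMP-activated Smads. Id1 read 4.03 and 4.11 against 4.24, 4.02 and 4.07 (-0.04 ± 0.08, SE; limma adjusted p = 0.954). Id2, which also acts in mammary luminal cells, read 6.27 and 6.15 against 6.30, 6.68 and 5.91, with both knockout arrays inside the wild-type range. Id3 read 6.61 and 6.91 against 6.55, 6.90 and 6.69, and knockout 2 was level with wild type 2. Id4 read 4.23 and 4.30 against 4.01, 4.24 and 4.23 (0.10 ± 0.09, SE), with wild type 1 as the low array. The 95% intervals of Id1 (-0.28 to 0.20), Id3 (-0.40 to 0.49) and Id4 (-0.16 to 0.36) lay within 1.5-fold, and that of Id2 (-0.82 to 0.66) did not. The mean signals of Id1 (4.09) and Id4 (4.20) lay below the array medians over all genes (4.40 to 4.43), and background was not measured.

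Tgfbi, a secreted matrix protein named for its induction by TGF-beta, had the largest span of the 45 genes. It read 6.66 on knockout 1 and 8.05 on knockout 2, against 6.91, 7.98 and 6.88 on wild types 1, 2 and 3. Knockout 2 and wild type 2 formed a high pair and the other 3 arrays a low one, so that the genotype means, 7.36 ± 0.99 and 7.25 ± 0.63, differed by 0.10 ± 0.63 (SE; limma adjusted p = 1.000). Run 1 gave -0.79 and run 2 gave 1.18.

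The upstream windows of the targets that RefSeq gave are shown, since these genes carry the transcriptional output of the pathway. They lie at chr12:25096093-25096342 on the minus strand for Id2, and on the plus strand at chr4:136143572-136143821 for Id3, chr13:48260866-48261115 for Id4 and chr13:56609336-56609585 for Tgfbi. The Id3 window holds 2 Smad boxes, those of Id2 and Id4 hold 1 GGCGCC each, and that of Tgfbi holds 2 Smad boxes and 1 GGCGCC, without overlap between the 2 kinds. Such matches describe the letters and not binding. The GC content of these windows runs from 62.4% (Tgfbi) to 75.6% (Id4), and the shares over all windows were not matched for it. Whether the letters are more frequent here than in windows of like GC content was not tested.
Id2: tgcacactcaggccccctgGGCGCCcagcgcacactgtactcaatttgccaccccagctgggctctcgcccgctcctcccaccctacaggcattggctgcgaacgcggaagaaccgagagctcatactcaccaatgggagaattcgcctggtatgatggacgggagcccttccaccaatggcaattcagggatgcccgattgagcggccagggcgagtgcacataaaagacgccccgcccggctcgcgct
Id3: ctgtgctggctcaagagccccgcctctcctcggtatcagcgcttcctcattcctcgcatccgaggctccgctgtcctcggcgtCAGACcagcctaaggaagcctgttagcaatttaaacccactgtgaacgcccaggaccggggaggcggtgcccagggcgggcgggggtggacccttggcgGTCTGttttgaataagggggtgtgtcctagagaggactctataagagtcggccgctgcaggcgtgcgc
Id4: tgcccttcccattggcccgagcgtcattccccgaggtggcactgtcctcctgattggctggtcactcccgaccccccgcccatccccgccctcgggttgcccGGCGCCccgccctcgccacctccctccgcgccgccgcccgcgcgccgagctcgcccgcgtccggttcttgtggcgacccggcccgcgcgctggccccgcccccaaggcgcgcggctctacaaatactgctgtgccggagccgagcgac
Tgfbi: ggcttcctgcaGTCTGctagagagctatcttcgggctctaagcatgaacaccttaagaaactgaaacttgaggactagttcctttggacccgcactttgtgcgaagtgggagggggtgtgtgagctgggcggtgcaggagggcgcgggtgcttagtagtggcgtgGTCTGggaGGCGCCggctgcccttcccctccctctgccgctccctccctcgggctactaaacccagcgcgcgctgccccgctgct

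Knockout 2 and wild type 2, the high pair of Tgfbi, were the highest arrays in 11 of the 45 members (24.4%), where they were in 5.68% of all genes. These were Tgfb3, Ltbp4, Bmp4, Bmp5, Bmp6, Tgfbr3, Bmpr2, Acvrl1, Id3, Id4 and Tgfbi. None of the 10 Smads and regulators or the 4 extracellular regulators was among them, but these groups are small for a share of 5.68%. In the further pathway lists described below, the pair was highest for 5 of 13 extracellular regulators and 2 of 21 intracellular regulators. The pair holds 1 array of each genotype and 1 of each run, and the pattern was noticed in these values, so it has no test.

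The list means of fibroblast, endothelial, pericyte, basal and adipocyte markers were highest on the same pair. Single markers were highest there in 8 of 10 for fibroblasts, 8 of 11 for endothelium, 5 of 8 for pericytes, 3 of 10 for basal cells and 1 of 8 for adipocytes. The pair was highest for 0 of 13 luminal, 0 of 9 macrophage and 0 of 8 lymphocyte markers. The fibroblast list mean was 8.53 on knockout 2 and 8.68 on wild type 2, against 8.32 on knockout 1, 8.23 on wild type 1 and 8.04 on wild type 3. For the endothelial list it was 6.93 and 6.86 on the pair, against 6.22, 6.61 and 6.51. The pericyte list mean was 5.85 and 5.82, against 5.34, 5.43 and 5.51. Basal markers had list means of 7.47 and 7.50 on the pair, against 7.40, 7.18 and 7.15, and adipocyte markers 5.46 and 5.31, against 5.20, 5.24 and 5.30. The endothelial, pericyte and adipocyte means were lowest on knockout 1. Of the 45 members, 9 had their single lowest value on knockout 1, a share near that of all genes (17.6%). These members were Tgfb3, Ltbp4, Bmp4, Bmp6, Acvr2a, Acvrl1, Smad1, Skil and Tgfbi. None of these markers passed limma's test, and their part in the values of the pathway genes was not tested. In such preparations fewer cells of a type and less RNA per cell cannot be told apart.

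**Figure D4:**
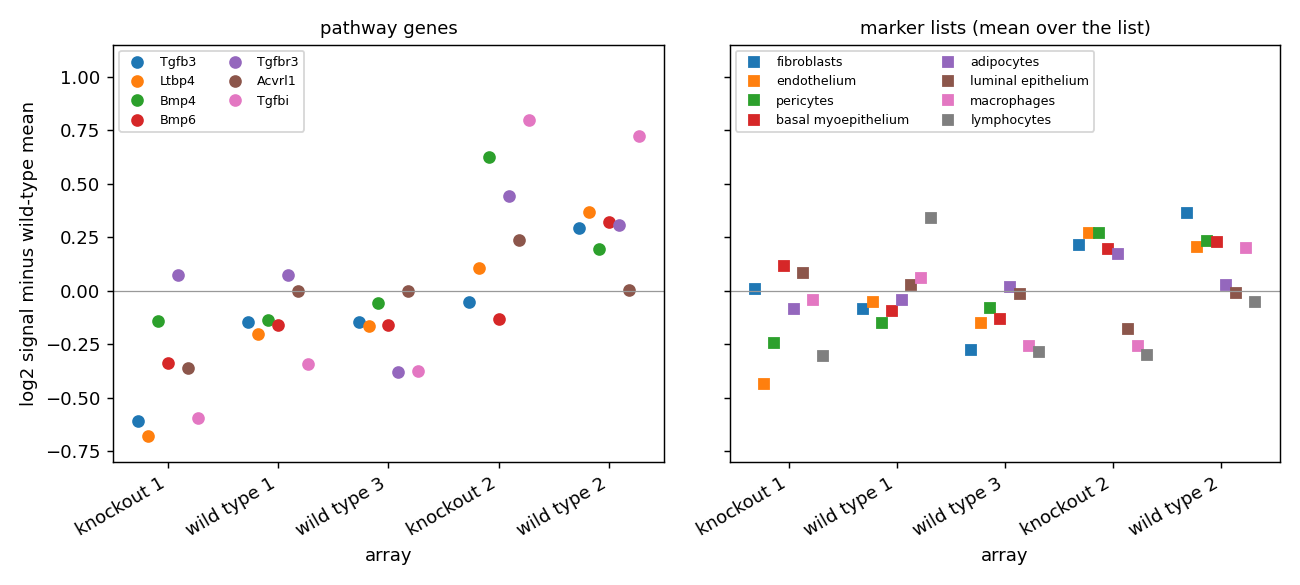
Log2 signal minus the wild-type mean (vertical axis) on the 5 arrays (horizontal axis, the high pair last), for 7 of the 11 pathway genes highest on knockout 2 and wild type 2 (left) and as the mean of 8 marker lists (right); 1 point per array. Fibroblast, endothelial, pericyte, basal and adipocyte lists lie highest on the same pair, the luminal and lymphocyte lists do not, and the macrophage list is high on wild type 2 alone of the pair.

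Other genes of the pathway were read from 7 lists, which hold 109 genes, of which 100 were measured. None passed limma's test (smallest adjusted p 0.919), while 1 was higher and 1 lower without overlap between the groups (2.63% and 2.8% of all genes). The one above was Gdf7, a BMP-class ligand, at 3.20 ± 0.05 against 3.11 ± 0.04. The one below was Itgb8, an integrin chain that releases TGF-beta together with MMP14, at 7.06 ± 0.03 against 7.26 ± 0.15. Itgb6, the chain of another activating integrin, was 6.62 ± 0.29 against 6.35 ± 0.09, with knockout 1 (6.83) above the rest and knockout 2 (6.42) below wild type 1 (6.45).

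Of 17 further TGF-beta target genes, 15 had a higher mean in the knockout, where 46.3% of all genes did. Their median difference was 0.15, where all genes had 0.00, and 0 passed the test. Snai1, a repressor of epithelial genes, was 3.60 ± 0.17 against 3.43 ± 0.07, and Jun was 8.92 ± 0.36 against 8.60 ± 0.10, both with overlapping groups. The mean of this list was 8.60 and 8.51 on the knockout arrays and 8.39, 8.66 and 8.28 on wild types 1, 2 and 3, so wild type 2 lay above both knockout arrays. The list shares Col1a1 and Col1a2 with the fibroblast markers and Acta2 with the basal ones. Of 13 further BMP targets, 7 had a higher and 6 a lower mean (median 0.00), among them Dlx3 (-0.10) and Sp7 (-0.13). Medians of the lists of other ligands, extracellular regulators, latent TGF-beta activators, co-receptors and intracellular regulators lay between -0.02 and 0.02. Examples were Bmp3 (-0.18), Twsg1 (0.13), Cer1 (-0.02), Acvr1c (-0.07), Neo1 (-0.08), Tab1 (0.06) and Smad9 (-0.05), with 0 passing. The means of Gdf7, Snai1, Sp7, Cer1, Acvr1c and Smad9 lay under the 40th percentile of genes.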

How the data were processed

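The authors deposited 1 log2 signal per probe set and array, normalised between arrays. The submitters' processing notes name RMA and limma. Library files and genome build: not given in the sources used here. Each array received biotinylated cDNA from 10 ng RNA. The labels call the arrays biological replicates and do not say whether each holds 1 mouse or a pool. Of 41345 probe sets, 23521 have 1 gene symbol; where a gene had several, its brightest by mean was taken. Differences were fitted over 22180 genes with limma 3.58.1 in R 4.3.3 (lmFit, eBayes, two-sided, no covariate) and adjusted by Benjamini-Hochberg. The procedure was tested on simulated data without repeated values, so that test does not cover the repeated values seen here. There are no detection calls, and precision is limited by having 5 arrays. Members and lists were chosen with earlier results of these data known. All members are named. Values per array are given for members without overlap and, per role, for up to 4 with the largest moderated t and 2 with the largest span. Others complete a family. Values of Ltbp2, Inhba, Inhbb, Smad4, Acvr2a and Acvrl1 are given outside this rule. Of the other lists, 2 genes each are named by moderated t. Alternatives were quantile normalisation, median centring, a filter on dim genes, averaged probe sets, the run or the replicate number as a block, values within runs, an intensity trend, and each array left out.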

Additional observations from a re-analysis of the deposited data

How the results depend on the processing

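The members' count of calls stayed at 0 in each direction, and the count over all genes at 0, under quantile normalisation, median centring, the filter on dim genes (39 members left), averaged probe sets, the intensity trend and either block. Leaving out 1 array gave 0 to 4 higher and 0 to 2 lower members and 0 to 1757 genes, with all calls made without a knockout array. The median over the members stayed between -0.0026 and 0.029 under the alternatives run, within-run values included. Signs turned for small differences. With quantile normalisation Acvr1 was at 0.014 and Smad5 at 0.019, and with median centring Smad5 was at 0.0044. With the run as a block Smurf1 was at 0.044 and Smurf2 at -0.0072. With the replicate number as a block, Inhba was at 0.090, Acvr1 at 0.0053, Smad5 at 0.019 and Tgfbi at -0.088, and no call changed. With 2 knockout arrays centred on their mean, their deviations mirror each other: the correlation with wild type 1 was 0.25 for knockout 1 and -0.25 for knockout 2. The check therefore cannot settle the pairing, and the labels do not say that a number marks a shared litter or batch. For knockout 2 the correlation was -0.04 with wild type 2 and 0.26 with wild type 3, which shares its run. Knockout 1 mirrors these values too, so the part of the runs is not settled either. Leaving out 1 array turned the sign of 23 members, with these ranges: Tgfb2 (-0.47 to 0.11), Ltbp4 (-0.68 to 0.10), Bmp4 (-0.14 to 0.62), Bmp5 (-0.054 to 0.0044), Inhba (-0.21 to 0.09), Inhbb (-0.12 to 0.050), Fst (-0.033 to 0.29), Tgfbr2 (-0.55 to 0.28), Bmpr1b (-0.096 to 0.023), Acvr1 (-0.021 to 0.0053), Acvr1b (-0.076 to 0.52), Acvr2a (-0.22 to 0.14), Acvrl1 (-0.36 to 0.24), Smad2 (-0.096 to 0.017), Smad3 (-0.037 to 0.25), Smad4 (-0.12 to 0.032), Smad5 (-0.023 to 0.019), Smurf1 (-0.32 to 0.27), Smurf2 (-0.052 to 0.072), Id1 (-0.083 to 0.027), Id2 (-0.28 to 0.11), Id3 (-0.10 to 0.19) and Tgfbi (-0.60 to 0.80).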
